A study of Mus musculus with 6 samples.

Results

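A set of 8 genes that restrain or respond to fibroblast growth factor (FGF) signalling was followed in sorted cells of the embryonic mouse genital tubercle, from which the external genitalia develop. They were Spry1, Spry2, Spry4, Spred1, Spred2, Dusp6, Etv4 and Etv5, and every probe set annotated to 1 of these 8 genes was taken, 26 of the 45037 probe sets that are not array controls. The 8 are among 18193 genes with a probe set of their own. All embryos were at 12.5 days post coitum, of mixed background and both sexes, and carried Shhtm1(EGFP/cre)Cjt, which makes a green fluorescent Cre recombinase from the Shh locus, with Gt(ROSA)26Sortm3(CAG-EYFP)Hze, a yellow reporter that Cre switches on. Both groups share these alleles. Fluorescence sorting after trypsin had split the cells into a reporter-positive fraction, labelled urethral epithelium, and a reporter-negative fraction, labelled only as genital tubercle. Each group held 3 arrays, from pools of 3, 5 and 2 littermates, numbered replicates 1, 2 and 3. The labels do not say whether positive and negative arrays of equal pool size share a litter. Because Cre recombination is permanent, the reporter also marks cells whose ancestors used the Shh locus, and green and yellow fluorescence were sorted together.

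FGF ligands bind receptor tyrosine kinases, which pass the signal through Ras and the kinase ERK to the nucleus. There it raises transcription factors of the ETS family, such as Etv4 and Etv5, and also the pathway's own brakes: Sprouty proteins (Spry) act between receptor and Ras, Spred proteins keep Ras from activating Raf, and Dusp6 removes the phosphates that activate ERK. Their transcripts are therefore commonly read as a sign of FGF activity, although other receptor tyrosine kinases drive them too. In the genital tubercle, outgrowth depends on signals between the urethral epithelium and the mesenchyme around it, FGFs among them. The comparison asks in which sorted fraction the response genes are more abundant. The fractions were not epithelium and mesenchyme alone, as the marker sums below show.

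The arrays differed in signal, and positive replicate 3 was dim. The median deposited signal of named probe sets was 7.62, 8.84 and 2.15 in negative replicates 1, 2 and 3. It was 4.73, 3.56 and 0.34 in positive replicates 1, 2 and 3, so replicate 3 was dimmest in each group. On positive replicate 3, 24.6% of named probe sets were above every one of the 27 unspiked bacterial controls on that array. On the other 5 arrays it was 44.0% to 59.3%. The brightest of these controls on each array is the background used throughout. Results are therefore given with and without positive replicate 3. Markers fitted the labelled epithelium: all 10 epithelial markers had a positive difference and their summed normalized signal was 915 to 2356 in positive against 58.2 to 71.5 in negative arrays. The sum of 10 mesenchymal markers was 2322 to 3063 in negative arrays, and 2389, 163 and 388 in positive replicates 1, 2 and 3, so positive replicate 1 lay within the negative range.

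Promoters are shown for the 3 genes with the largest differences, negative for Dusp6 and Etv5 and positive for Spry1. Each line is the 250 bases before a transcription start, 5′ to 3′ on the gene's strand, from RefSeq on GRCm38.p6. Capitals mark GGAA or its reverse complement TTCC, the core that ETS factors such as Etv4 and Etv5 bind.
Dusp6, chr10:99262981-99263230, plus strand: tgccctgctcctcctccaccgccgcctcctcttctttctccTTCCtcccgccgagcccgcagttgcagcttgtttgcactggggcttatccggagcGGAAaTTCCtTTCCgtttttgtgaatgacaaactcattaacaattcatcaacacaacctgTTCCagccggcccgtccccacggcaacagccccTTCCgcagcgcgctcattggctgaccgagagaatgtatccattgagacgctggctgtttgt
Etv5 start 1, chr16:22439571-22439820, minus strand: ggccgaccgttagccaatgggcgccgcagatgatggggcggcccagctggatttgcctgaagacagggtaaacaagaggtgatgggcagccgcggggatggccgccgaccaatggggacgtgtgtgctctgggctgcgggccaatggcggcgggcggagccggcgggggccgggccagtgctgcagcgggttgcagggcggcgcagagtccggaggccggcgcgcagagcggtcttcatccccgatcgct
Etv5 start 2, chr16:22438369-22438618, minus strand: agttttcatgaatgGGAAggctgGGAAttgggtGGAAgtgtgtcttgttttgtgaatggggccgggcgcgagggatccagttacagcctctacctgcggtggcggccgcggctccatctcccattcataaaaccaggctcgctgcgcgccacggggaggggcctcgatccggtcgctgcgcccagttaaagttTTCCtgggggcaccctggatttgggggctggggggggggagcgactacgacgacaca
Spry1, chr3:37639697-37639946, plus strand: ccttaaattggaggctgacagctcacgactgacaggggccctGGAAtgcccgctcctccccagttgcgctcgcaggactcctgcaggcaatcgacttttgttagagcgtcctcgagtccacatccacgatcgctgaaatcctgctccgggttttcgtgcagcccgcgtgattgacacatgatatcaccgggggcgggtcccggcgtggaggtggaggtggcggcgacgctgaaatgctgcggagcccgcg
The core occurred 6 times before Dusp6, 0 and 4 times before the 2 Etv5 starts and 1 time before Spry1. Across 32851 mouse promoter windows of the same length 93.4% held it on either strand. The longer form CGGAAG, which contains the core, was found on either strand in 13.6% of those windows, and in 3 of the 6 genes searched here: Dusp6 at 62, Spred2 at 43 and Spred1 at 17 bases before the start. CGGAAG holds a CG, and the 7 windows of these genes had 12 to 31 CG dinucleotides, beside a median of 6 over all windows. The shares are thus not of like windows. No searched window of these genes held TGACGTCA, TGANTCA or a CArG box, which 1.55%, 6.75% and 1.47% of all windows held, counting both strands. Such matches describe letters and are no evidence of binding.

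Most of the 26 probe sets gave little signal. Only 2 exceeded background on all 6 arrays, 1 for Spry1 and 1 for Spred1, while 6 did so on none and 20 on at least 1. For Spry4 and Etv4 no probe set exceeded background on any positive array.

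**Figure D1:**
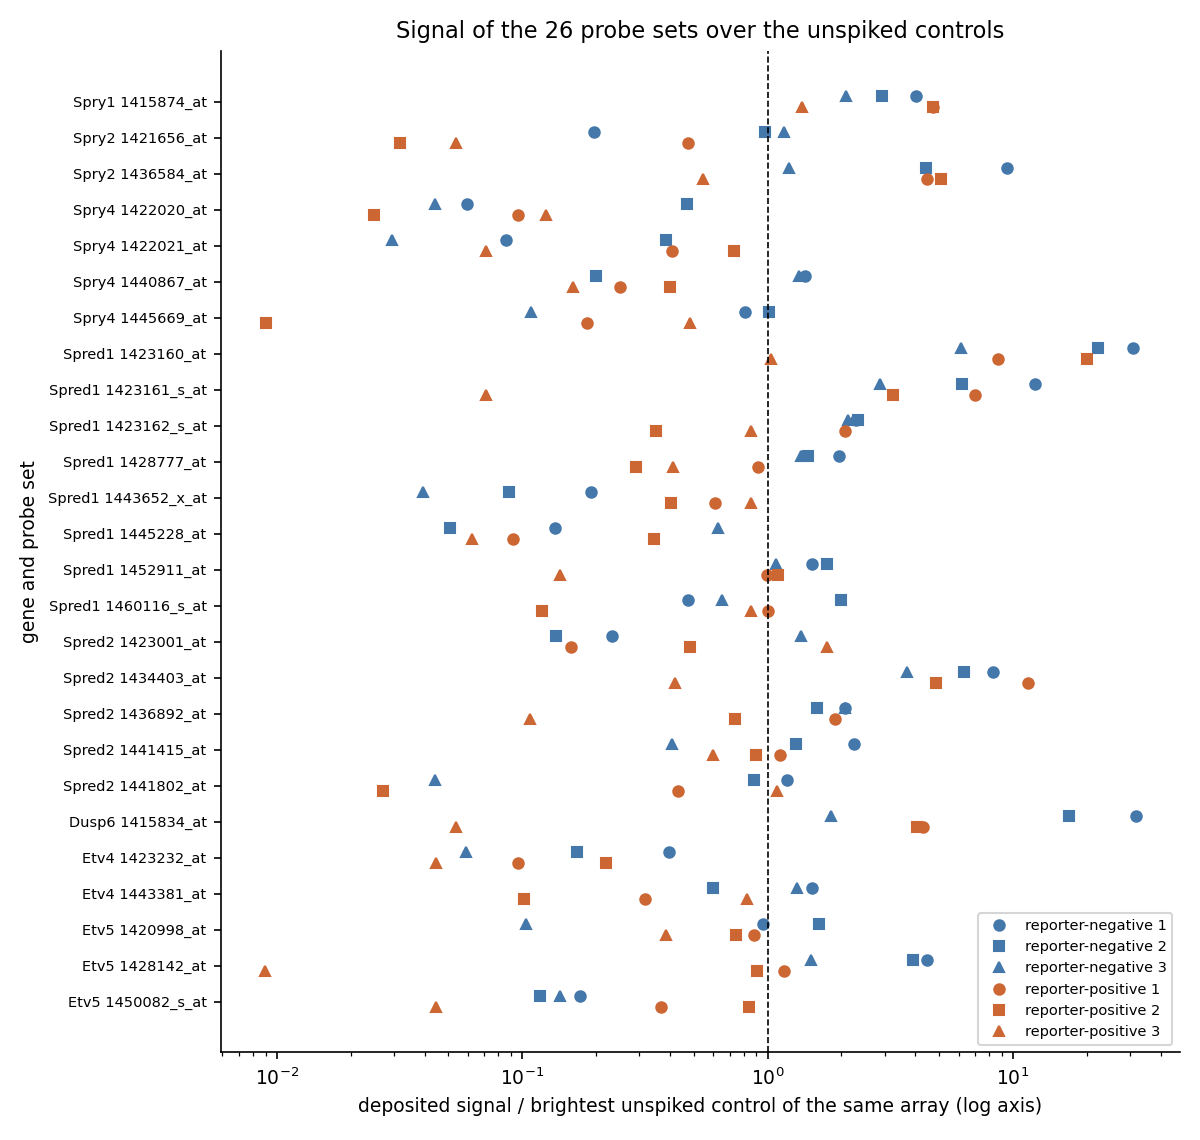
Deposited signal of each of the 26 probe sets divided by the brightest unspiked control of the same array, on a log axis, by array (blue negative, orange positive, symbols for replicates). Points right of the dashed line exceed background: 2 probe sets do so on all 6 arrays, and the triangles of positive replicate 3 lie mostly left of it.

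No member passed the threshold between the groups. For each gene the probe set with the highest mean was tested with limma among 14071 genes, on quantile normalized log2(signal + 16) values, where 4 is the floor. Of the 8 genes 0 passed an adjusted p of 0.05 and 0 passed an unadjusted p of 0.05, against 0.0142% and 5.17% of all genes tested. Without positive replicate 3, 0 of 8 passed the adjusted and 1, Spry1, the unadjusted threshold, against 0.602% and 9.15% of genes. Measured differences were positive for 3 and negative for 5 members, Etv4 and Spry4 with only a bound in the positive group among the latter, and their median was -0.11, beside -0.03 over all genes tested. Leaving out positive replicate 3, 4 were positive and 4 negative, with a median of 0.004 beside -0.002 over all genes tested. Groups did not overlap for 2 of 8 members, Etv5 below and Spry1 above, where 13.3% of all genes tested did not overlap, 6.99% below and 6.29% above. Without positive replicate 3 it was 4 of 8, Etv4 and Etv5 below and Spry1 and Spred2 above, where 24.6% of genes did not overlap. Over 23 alternatives the lowest adjusted p was 0.116 for Etv5, 0.219 for Spry1, 0.345 for Spred2, 0.474 for Spred1 and 0.500 for Spry2 (limma). It was 0.474 for Etv4 over the 21 alternatives that tested it and for Spry4 over 18 (limma). Because these are sorted bulk fractions, fewer cells of a type and less RNA per cell cannot be told apart.

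**Figure D2:**
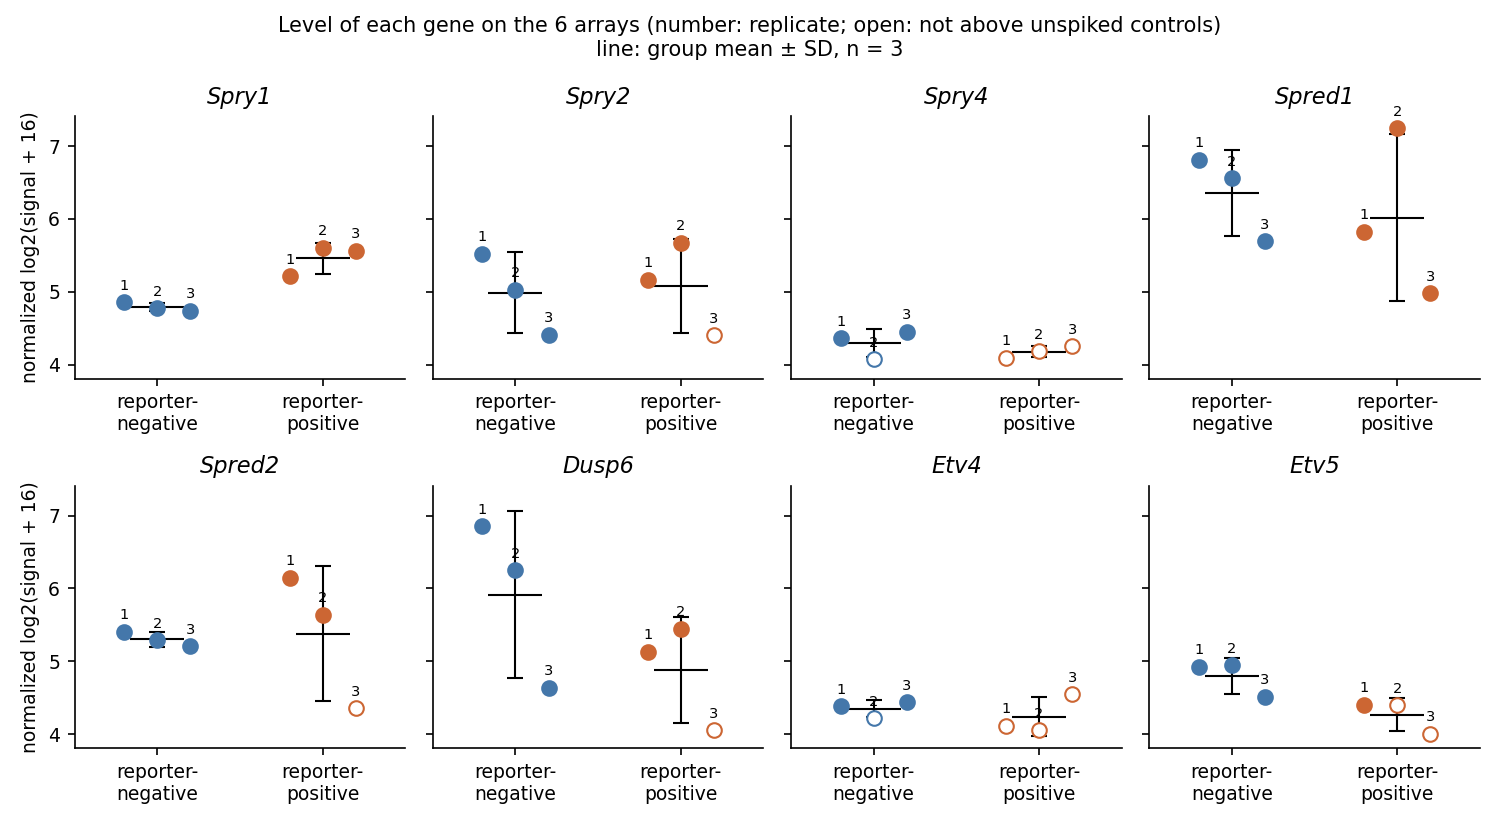
Normalized log2(signal + 16) of the probe set kept for each of the 8 genes, by sorted fraction. Points are arrays with their replicate number, open where the deposited signal did not exceed background, and lines are group means ± SD (n = 3). Spry1 is higher in all positive arrays, Etv5 lower in all, and Dusp6 is spread widely in both groups.

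Dusp6, the phosphatase that inactivates ERK, had the lowest difference of the 8. As deposited its single probe set read 170.2, 139.7 and 3.69 across negative arrays 1 to 3, and 19.3, 17.9 and 0.06 across positive arrays 1 to 3. Negative replicate 3 and positive replicate 3 were thus far below their groups. After normalization it measured 6.85, 6.25 and 4.63 in negative and 5.13, 5.44 and 4.05 in positive arrays. Every positive array lay below negative replicates 1 and 2, but positive replicates 1 and 2 lay above negative replicate 3, so the groups overlapped. The log2 difference was -1.04 (SE 0.59, 95% interval -2.36 to 0.29, adjusted p = 0.725, limma). The value depended on single arrays: it was -1.75 without negative replicate 3, -0.53 without negative replicate 1 and -0.65 without positive replicate 3, none of them past the threshold. With array weights, which give less weight to arrays that deviate more, Dusp6 was lower by adjusted p (-1.06, SE 0.32, adjusted p = 0.0476, limma), in a fit that called 1.6% of genes lower, and the adjusted p ranged from 0.0148 to 0.964 over 23 alternatives. The lowest came from replicates 1 and 2 alone with pool size as a block, a fit that called 1.86% of genes lower. The same arrays without the block gave the same difference, -1.38, and no call (adjusted p = 0.117, limma). Dusp6 was 5.13, 5.44 and 4.05 in positive replicates 1, 2 and 3, whose mesenchymal marker sums were 2389, 163 and 388. The part of mesenchymal cells in the Dusp6 values was not tested.

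Etv5, an ETS factor induced by FGF, was lower in each positive array by its brightest probe set only. That probe set read 24.0, 32.5 and 3.05 on the negative arrays and 5.23, 3.98 and 0.01 on the positive arrays. It exceeded background on all 3 negative arrays but on 1 positive array. Normalized levels were 4.92, 4.95 and 4.51 against 4.40, 4.40 and 4.01, so the groups did not overlap (4.79 ± 0.24 against 4.27 ± 0.23, SD, n = 3). The difference was -0.53 (SE 0.24, 95% interval -1.07 to 0.01, adjusted p = 0.725, limma), and -0.44 without positive replicate 3 (adjusted p = 0.626, limma). The other two probe sets of Etv5 differed by 0.06 and 0.13, and they exceeded background on 1 and 0 arrays. As the mean of its probe sets Etv5 differed by -0.11.

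Etv4, the other ETS factor of the set, was near the floor. Its brighter probe set read 8.11, 4.97 and 2.68 in negative and 1.42, 0.45 and 0.92 in positive arrays, above background on 2 negative arrays and on no positive array. The groups did not overlap as deposited. After normalization positive replicate 3 had the highest value of all, 4.55, and the groups overlapped. The measured means were 4.35 ± 0.12 in negative and 4.24 ± 0.27 in positive arrays (SD, n = 3, adjusted p = 0.853, limma), and 4.40 and 4.10 without positive replicate 3 (adjusted p = 0.629, limma). Since no positive array was above background, its level there is only bounded, and the bound gave no fold above 1.

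Spry1, the one Sprouty gene above background on all arrays, had the highest difference of the 8. Its single probe set exceeded background on all 6 arrays, at 21.6, 24.3 and 4.23 on the negative arrays and 21.2, 20.8 and 1.54 on the positive arrays. For replicates 1 and 2 the deposited values of both groups were thus close, while the medians of those arrays were 7.62 and 8.84 in the negative and 4.73 and 3.56 in the positive group. Normalized levels were 4.85, 4.77 and 4.74 in negative and 5.21, 5.60 and 5.56 in positive arrays, without overlap (4.79 ± 0.06 against 5.46 ± 0.21, SD, n = 3). The difference was 0.67 (SE 0.32, 95% interval -0.03 to 1.37, adjusted p = 0.725, limma), and without positive replicate 3 it was 0.67 (SE 0.27, 95% interval 0.10 to 1.25, unadjusted p = 0.0252, adjusted p = 0.447, limma). The direction rests on the scaling between arrays: with values as deposited the difference was -0.12, where the median of all genes tested was -0.48, so that Spry1 lay 0.36 above that median.

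Spry2 and Spry4 did not separate the groups. Spry2, a brake that in other organs limits FGF response in epithelium, read 50.5, 36.6 and 2.49 in negative and 20, 22.3 and 0.61 in positive arrays by its brighter probe set. Its normalized levels were 5.52, 5.03 and 4.41 against 5.17, 5.67 and 4.40, so replicate 3 was lowest in both groups. The difference was 0.09 (SE 0.43, 95% interval -0.87 to 1.05, adjusted p = 0.947, limma), and 0.47 without positive replicate 3 (adjusted p = 0.740, limma). It changed sign in 5 of 23 alternatives, among them -0.21 without negative replicate 3 and -0.21 without positive replicate 2. The second Spry2 probe set exceeded background on 1 array and was not tested in the 6 arrays. Of 4 Spry4 probe sets 2 exceeded background on no array, and the one kept read 7.58, 1.66 and 2.73 against 1.12, 1.76 and 0.18. Its measured means were 4.29 ± 0.20 and 4.18 ± 0.08 (SD, n = 3, adjusted p = 0.806, limma), and here too the positive level is only bounded, with no fold above 1.

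Spred1, which restrains Ras at the membrane, had 8 probe sets. The 5 that exceeded background on 3 or more arrays all had a negative difference in the 6 arrays, and the 3 others, above background on 1 array or none, a positive one. All 5 exceeded background on all 3 negative arrays but on 0 to 3 positive arrays. The rule thus admits probe sets that are high in negative arrays, and their shared direction is no separate support. None of the Spred1 probe sets tested passed. The brightest read 164.6, 183.6 and 12.5 on the negative arrays and 38.7, 88.6 and 1.16 on the positive arrays, above background on all 6 arrays. Its normalized levels were 6.81, 6.56 and 5.69 against 5.82, 7.24 and 4.98, so positive replicate 2 was the highest of the 6 arrays and positive replicate 3 the lowest. The difference was -0.34 (SE 0.59, 95% interval -1.65 to 0.98, adjusted p = 0.854, limma) and turned to 0.18 without positive replicate 3 (adjusted p = 0.942, limma), while it was -0.97 without positive replicate 2. The second brightest, 1423161_s_at, was above background on 5 arrays and read 65.9, 51.5 and 5.84 against 31.2, 14.3 and 0.08. Its difference was -0.36 (SE 0.44, adjusted p = 0.813 over 24461 probe sets, limma), and 0.08 without positive replicate 3 (adjusted p = 0.9749, limma). A dimmer probe set, 1428777_at, was lower in each positive array, at 4.48, 4.47 and 4.46 against 4.32, 4.15 and 4.35. That difference was -0.19 (SE 0.17, adjusted p = 0.760 over 24461 probe sets, limma), and no positive array exceeded background there. Probe set 1443652_x_at was higher in each positive array by 0.30, but it exceeded background on no array and was not tested.

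Spred2, the second Spred, separated the groups by its brightest probe set only, without positive replicate 3 and not with it, and did not pass the test. Its brightest probe set, 1 of 5, read 44.4, 52.2 and 7.52 in negative and 51.6, 21.5 and 0.47 in positive arrays. Normalized levels were 5.41, 5.29 and 5.21 against 6.15, 5.64 and 4.35, so positive replicates 1 and 2 lay above all negative arrays and positive replicate 3 below them. The difference was 0.08 (SE 0.47, 95% interval -0.97 to 1.12, adjusted p = 0.958, limma). Without positive replicate 3, where the signal had not exceeded background, it was 0.63 (SE 0.30, 95% interval -0.02 to 1.27, adjusted p = 0.565, limma). It was -0.30 without positive replicate 1 and -0.06 without positive replicate 2. The other Spred2 probe sets exceeded background on 2, 4, 3 and 2 arrays, and their groups overlapped in both fits. They differed by 0.63, -0.21, 0.02 and 0.21 in the 6 arrays. Leaving out positive replicate 3, they differed by -0.05, -0.13, 0.02 and -0.15. Over all 26 probe sets of the 8 genes 13 differences were positive and 13 negative, 18 probe sets were tested and 0 passed an adjusted or an unadjusted p of 0.05 (limma), where 0.0491% and 4.65% of all 24461 tested probe sets did. Groups did not overlap for 3 of the 18, beside 12.7% of all probe sets tested. Without positive replicate 3 the counts were 0 and 1 of 17, where 0.405% and 8.17% of all probe sets passed.

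**Figure D3:**
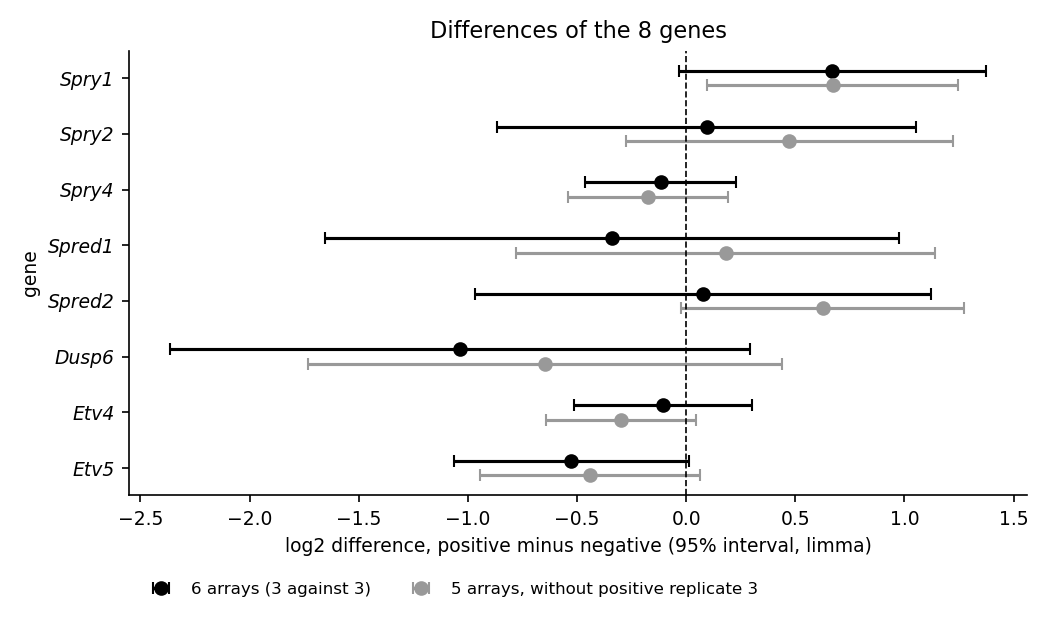
Log2 difference, positive minus negative, of the 8 genes with 95% intervals from limma, in the 6 arrays (black) and without positive replicate 3 (grey). Etv4 and Spry4 were not above background in the positive group. All black intervals include 0, and among the grey ones that of Spry1 does not.

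Other genes of the pathway likewise gave no call in either fit. Of 22 FGF ligands 12 were tested, and for 6 of the 22 no probe set exceeded background on any array. Groups did not overlap for 1 of these 12, 1 of 5 receptors, 0 of 14 adaptors and kinases, 3 of 14 other feedback inhibitors and 4 of 14 other ERK response genes, beside 13.3% of all genes tested. Fgf9 had the lowest difference, 4.60 against 5.43 in negative arrays (-0.83, SE 0.37, adjusted p = 0.725, limma), without overlap, and Fgf7 the highest, 0.36. Among the 5 receptors Fgfr3 had the highest difference, 5.79 against 4.62 (1.17, SE 0.35, adjusted p = 0.725, and 0.0961 without positive replicate 3, limma), with all positive arrays above all negative ones. Fgfr1, a receptor that mesenchyme uses, had the lowest, -0.48 (SE 0.41). The 14 tested adaptors and kinases ranged from Map2k2, which phosphorylates ERK, at 0.57, to Rps6ka3, a kinase that ERK activates, at -1.06. The highest and lowest genes named are those of the 6 arrays. Leaving out positive replicate 3, Map2k2 was -0.03 and Rps6ka3 -0.33. In that fit Fgf9 was -0.59, Fgf7 0.11, Fgfr3 1.26 and Fgfr1 -0.45. The array-weights fit called 1.81% of genes higher, Fgfr3 among them (1.01, SE 0.27, adjusted p = 0.0200, limma).

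Other feedback inhibitors and ERK response genes were divided in direction as well. Of 14 tested feedback inhibitors 7 had a positive and 7 a negative difference, with a median of -0.04 beside -0.03 over all genes tested. Errfi1, which inhibits the EGF receptor, had the highest difference (1.26, SE 0.44) and Il17rd, an FGF antagonist at the membrane, the lowest (-0.98, SE 0.50), and neither passed (adjusted p = 0.725, limma). Errfi1 was 1.27 and Il17rd -0.57 without positive replicate 3. Of 14 tested ERK response genes 7 were positive and 7 negative, from Phlda1 at 0.96 (SE 0.48) to Flrt3, a membrane protein induced by FGF, at -1.16 (SE 0.54). Phlda1 was 0.47 and Flrt3 -0.77 without positive replicate 3. Array weights called Ets1 (-1.71, SE 0.37, adjusted p = 0.00235, limma) and Ccnd1 (-1.31, SE 0.33, adjusted p = 0.0111, limma) lower, 2 genes named after their values were seen. That fit called 1.6% of all genes tested lower. In the unweighted fit of the 6 arrays the groups overlapped for Ets1 and for Ccnd1. Ets1 was then -0.82 (SE 0.72, adjusted p = 0.730, limma) and Ccnd1 -0.66 (SE 0.47, adjusted p = 0.725, limma). Fos, Egr1 and Ier2, which dissociation of tissue also induces, differed by 0.87, 0.86 and 0.67 in the 6 arrays. None of the 3 passed (adjusted p = 0.725, limma), and the part of dissociation in the values of the 8 genes was not tested.

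**Figure D4:**
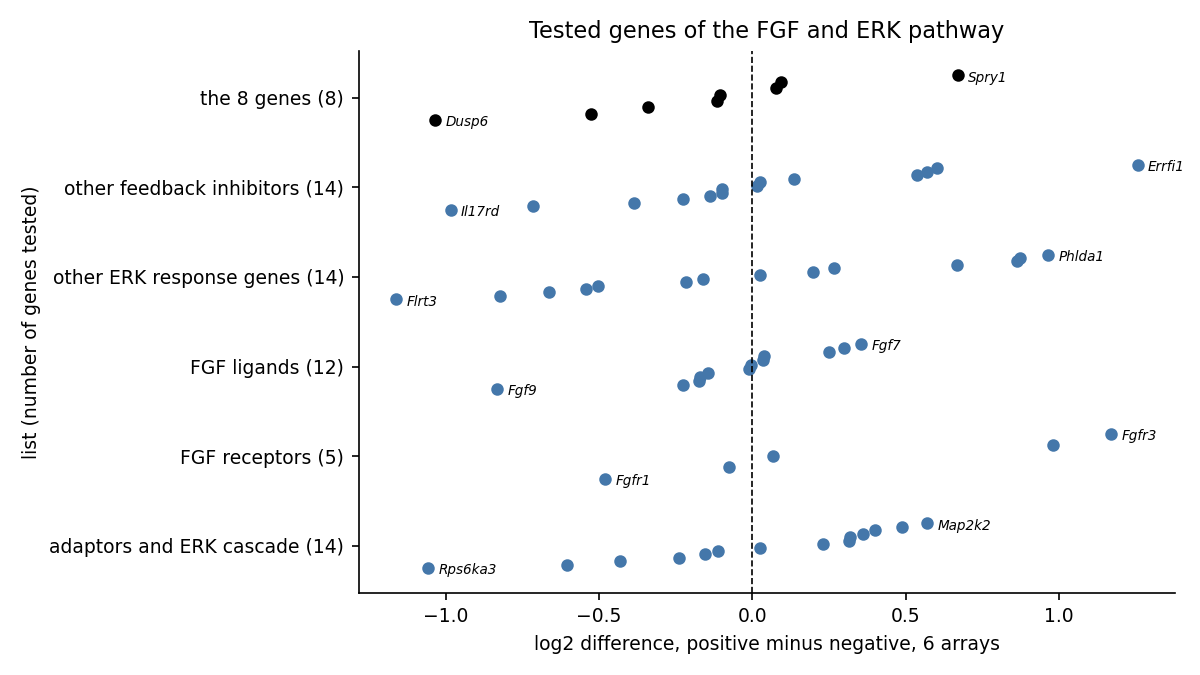
Log2 difference, positive minus negative, in the 6 arrays for tested genes of 6 lists, 1 point a gene, with the number tested in brackets and the highest and lowest gene of each list named. Each list has genes on both sides of 0, and 0 of these genes passed an adjusted p of 0.05.

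Genes with the profile most like Dusp6 and Spry1 were found by the root mean square distance between centred log2 values over the 6 arrays. For Dusp6 they were Ldlrad3 (0.18), Agpat4 (0.22) and Tspan31 (0.24), and for Spry1 Cpsf3 (0.03), Sptlc3 (0.05) and Glt8d1 (0.08). With 6 arrays and 14071 genes such closeness is a description.

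Marker sums of other cells did not overlap between the groups for red and white blood cells, and overlapped for endothelial, neural and muscle markers. The sum of 9 erythroid markers was 3137 to 6037 in negative and 683 to 1511 in positive arrays, and that of 10 leukocyte markers 18.4 to 42.9 against 68.2 to 163. Hbb-y was the largest part of the erythroid sum, with mean log2 levels of 11.6 in negative and 9.90 in positive arrays. Of the 9 erythroid markers 8 had a negative difference, and Hba-a1 a positive one (0.66). Of 7 leukocyte markers tested 6 had a positive difference, and Ptprc a negative one (-0.12). For 10 endothelial markers the sum was 33.5 to 52.9 against 34.9 to 165, and 3 of them, Pecam1, Tie1 and Sox17, exceeded background on no array. The leukocyte markers Tyrobp and Aif1 did so on none either. For 5 neural and glial markers it was 8.77 to 18.6 against 11.4 to 30.4, with Foxd3 and Tubb3 above background on no array, and for 8 muscle markers 11.5 to 75.2 against 18.4 to 62.6. Their part in the differences of the 8 genes was not tested.

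**Figure D5:**
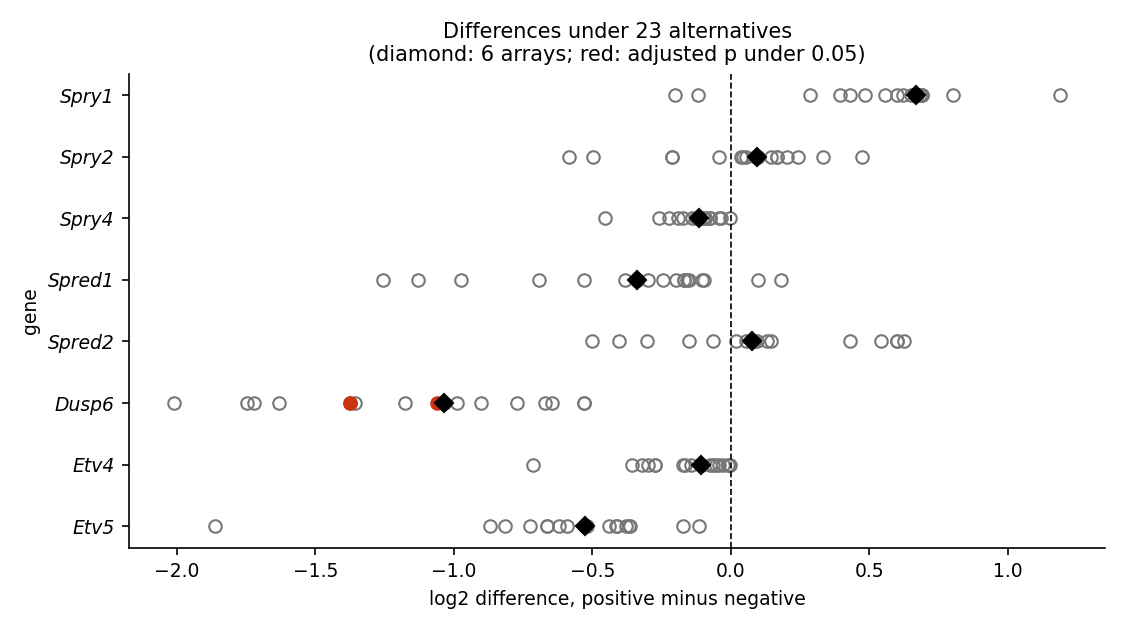
Log2 difference, positive minus negative, of the 8 genes in the 6 arrays (diamonds) and under 23 alternatives (circles, red where the adjusted p is under 0.05). Dusp6 and Etv5 lie below 0 at each point, as do Etv4 and Spry4, which were not above background in the positive group. The other 4 genes fall on both sides, and the red points are 2 for Dusp6. For each gene 6 or 7 alternatives leave the difference as it is and fall on the diamond.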

How the data were processed

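RNA from sorted cells was put on Affymetrix arrays of 45101 probe sets after in vitro transcription labelling (source: the labels' protocols). The authors deposited 1 intensity per probe set and array, on a linear scale judging from the values. For 1 of 6 samples the submitters' processing notes name GCOS. How probes were summarized and scaled is not given in the sources used here.

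After 64 controls were set aside, 45037 probe sets were quantile normalized and transformed to log2(signal + 16), so that changes of dim genes come out too small. Forcing equal distributions also stretches the noise of a dim array. Of these probe sets 34945 had 1 gene, 932 several and 9160 none here. Symbols were updated through gene identifiers (34741 matched, RefSeq table of GRCm38.p6). For each gene the probe set with the highest mean was kept, and genes were tested where that mean passed the 30th percentile over named probe sets. The 8 members were all tested, and probe sets were also tested singly. Groups, from the labels, were compared with lmFit and eBayes with intensity trend (limma 3.58.1, R 4.3.3), Benjamini-Hochberg adjustment and a threshold of 0.05. The fit and the adjustment were tested on simulated data. No such test of the normalization, pseudocount, probe set choice, filter or background rule is reported here. Nor is one reported for differences as small as those of the 8 members. p-values measure the spread between arrays.

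Alternatives changed the scaling, pseudocount, filter, probe set rule, variance model, array weights, pool size block and arrays used. The members and lists were chosen with earlier results of these data known. Text names all members, for each other pathway list the called genes and the highest and lowest, and the 3 genes closest in profile to each of the 2 members with the largest difference. Spred1 probe sets named by identifier, Fos, Egr1, Ier2 and the single markers were picked after values were seen. Of 21 adaptor and kinase genes 14, of 16 ERK response genes 15, of 10 erythroid markers 9 and of 8 neural and glial markers 5 were matched, the others are not analysed here. Promoters of 6 of the 8 genes were searched. Of the lists in this text, mesenchymal and epithelial markers had 10 genes each.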

Additional observations from a re-analysis of the deposited data

How the results depend on the processing

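Of the 23 alternatives 6 or 7 leave a member's difference as it is and cannot turn it. Among the other distinct values Dusp6 was negative in 15 of 15, Etv5 in 16 of 16 and Spry1 positive in 13 of 15. Against the median of all genes tested these 3 kept their side in every alternative. Etv4 and Spry4 were negative in 16 of 16, but turned against that median in 5 and 3 alternatives, to at most 0.19 and 0.28, and their positive level is only bounded. Spry1 turned to -0.12 with values as deposited and -0.20 with scaling on hybridization controls. The median of all genes tested was then -0.48 and -0.54, and that of the members -0.54 under the latter scaling. Under the same 2 scalings Spry2 turned to -0.50 and -0.58 and Spred2 to -0.40 and -0.50. Spry2 was also -0.043 as the mean of probe sets, and leaving out single arrays gave -0.21 to 0.47. Spred2 was -0.15 with a pseudocount of 1, and -0.30 to 0.63 leaving out single arrays. Spred1 was 0.10 with cyclic loess, and -0.97 to 0.18 leaving out single arrays. The cause was not tested.

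Dusp6 passed with array weights (-1.06) and with a replicate block for pool size in replicates 1 and 2 only (-1.38, adjusted p = 0.0148, limma), so 1 member and 1 member probe set were lower in either fit. Each fit also called 3 other pathway genes. Over all genes tested, array weights called 480 of 14071 and the block fit 517 of 13960. Without positive replicate 3 the count of members stayed 0 in the alternatives run that kept positive replicates 1 and 2, array weights included. The fits of replicates 1 and 2 only, with or without the block, were not part of these counts, which were added after the data were seen.

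The count of all genes past the threshold, 2, was 0 with values as deposited, hybridization controls, the mean of probe sets or pseudocount 64, 7 with median scaling or a pseudocount of 1, 12 with the 75th percentile or all probe sets, 6 with the stricter filter, 480 with array weights, 27 in replicates 1 and 2 only, 517 there with the replicate block and 0 to 84 leaving out single arrays. The replicate block in the 6 arrays moved no member past the threshold (Dusp6 unadjusted p = 0.0311, adjusted p = 0.681, limma). Deviations of positive and negative arrays of equal pool size correlated at 0.127, 0.033 and 0.109, and unlike ones at -0.131 to 0.063. With 3 arrays per group such correlations cannot decide the pairing, which is not established. Sample titles number positive and negative fractions of equal pool size consecutively, but do not state a shared litter. Positive minus negative for Dusp6 was -1.72, -0.81 and -0.58 between arrays of equal pool size, 3, 5 and 2 embryos, which are not known to be pairs. Low signal limits Spry4, Etv4 and most dimmer probe sets, and 3 arrays per group limit the rest.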
